A study of Mus musculus with 12 samples.

Results

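Total RNA of MIN6 cells was compared between a Pdx1 siRNA and a control siRNA called NT. The comparison used the 6 total RNA libraries among the 12 of the series, chosen by their titles, with 3 for each siRNA. MIN6 is an insulin-secreting line from a mouse insulinoma, grown here in DMEM with high glucose and used at passage 29. Both groups were nucleofected and collected 72 h later, so the control cells had also gone through nucleofection with an siRNA, and cells without siRNA were not analysed here. The siRNA sequences are not given in the labels. The labels also do not say whether the 3 libraries of a group were separate cultures, so a p-value here reflects only how much those libraries vary, which can be technical. The other 6 libraries hold RNA pulled down with tagged ribosomes from the same conditions (IP RNA).

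PDX1 is a homeodomain transcription factor that is needed to form the pancreas and, in the adult, to keep beta cells making insulin. It binds TAAT-containing sites in the insulin, islet amyloid polypeptide and glucose transporter genes and acts together with factors such as MAFA and NEUROD1. Beta cells that lose it can take on features of alpha cells, the islet cells that make glucagon.

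The target transcript was checked first. Pdx1 (chr5:147270097-147275848, build mm10) stood at 118, 123 and 109.6 CPM (the depth-scaled count unit of edgeR, on TMM-scaled library sizes) in the NT libraries and at 47.6, 57.4 and 47.9 CPM in the Pdx1 siRNA libraries. All 3 libraries with Pdx1 siRNA lay below all 3 NT libraries, at 2.29-fold less on average (log2 fold change −1.2, SE 0.10, edgeR adjusted p = 1.0e-07). Beta-cell markers were abundant with NT siRNA, with the amylin gene Iapp at 27420.5 ± 2374 CPM (SD, n = 3) and the homeobox gene Nkx6-1 at 59.9 ± 6.75 CPM. Neither Iapp (−0.05) nor Nkx6-1 (−0.23) passed the edgeR test. The other planned beta-cell markers were less uniform: as given below, Ins1 was called lower, Chga was called higher and Ins2 was not called. The value of Slc2a2, also a planned marker, is not given here. None of 22 markers of immune, endothelial and stromal cells was among the genes in the tables, and 7 of 25 acinar and duct markers were.

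The libraries held 30577243 to 42538415 counts over 12643 genes, and every gene had counts in all 6. A first principal component with 85.3% of the variance separated the siRNAs. The second, with 9.24%, set Pdx1 siRNA replicate 1 apart (16.7, against −6.78 and −7.28 for replicates 2 and 3). TMM factors were 1.22 to 1.23 with NT and 0.950 to 1.07 with Pdx1 siRNA, and scaling by total counts alone would lower the median log2 fold change of all genes by 0.28. Fold changes below are relative to the TMM scale. Short transcripts were slightly lower, with a median log2 fold change of −0.10 in those of up to 1672 bases. Across genes, Spearman's rho with length was 0.079 (n = 12524 genes, which are not independent replicates).

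Many genes changed by small amounts after Pdx1 siRNA and few by 2-fold or more. The edgeR quasi-likelihood test at an adjusted p under 0.05 called 6696 of 12643 genes, 53% of those tested, with 3010 higher (23.8%) and 3686 lower (29.2%). With total counts alone the same test gave 1485 higher and 6951 lower, so the split between directions rests on the scaling. The median absolute log2 fold change of the called genes was 0.47. The libraries of the siRNAs did not overlap in 7431 of 12643 genes (58.8%), so a named gene without overlap is not unusual. The rule for naming the highest and lowest fold changes also required no overlap. A change of 2-fold or more was seen in 886 genes (7.01%), 427 higher (3.38%) and 459 lower (3.63%). The large changes were unequal in size: 72 genes rose at least 4-fold and 15 at least 8-fold, while 19 fell at least 4-fold and 0 fell 8-fold. The lowest count of any transcript in these libraries was 7, so genes near 0 with either siRNA are not among those tested. The part of this limit in the inequality was not tested. In the 427 higher genes the median log2 distance from the NT mean was 1.04, 1.11 and 1.25 in replicates 1, 2 and 3 of Pdx1 siRNA, and in the 459 lower genes it was −1.15, −1.18 and −1.28. Each Pdx1 siRNA library therefore carried both shifts, with replicate 1 the least moved; these genes were chosen on the same libraries, so the distances are a description.

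**Figure D1:**
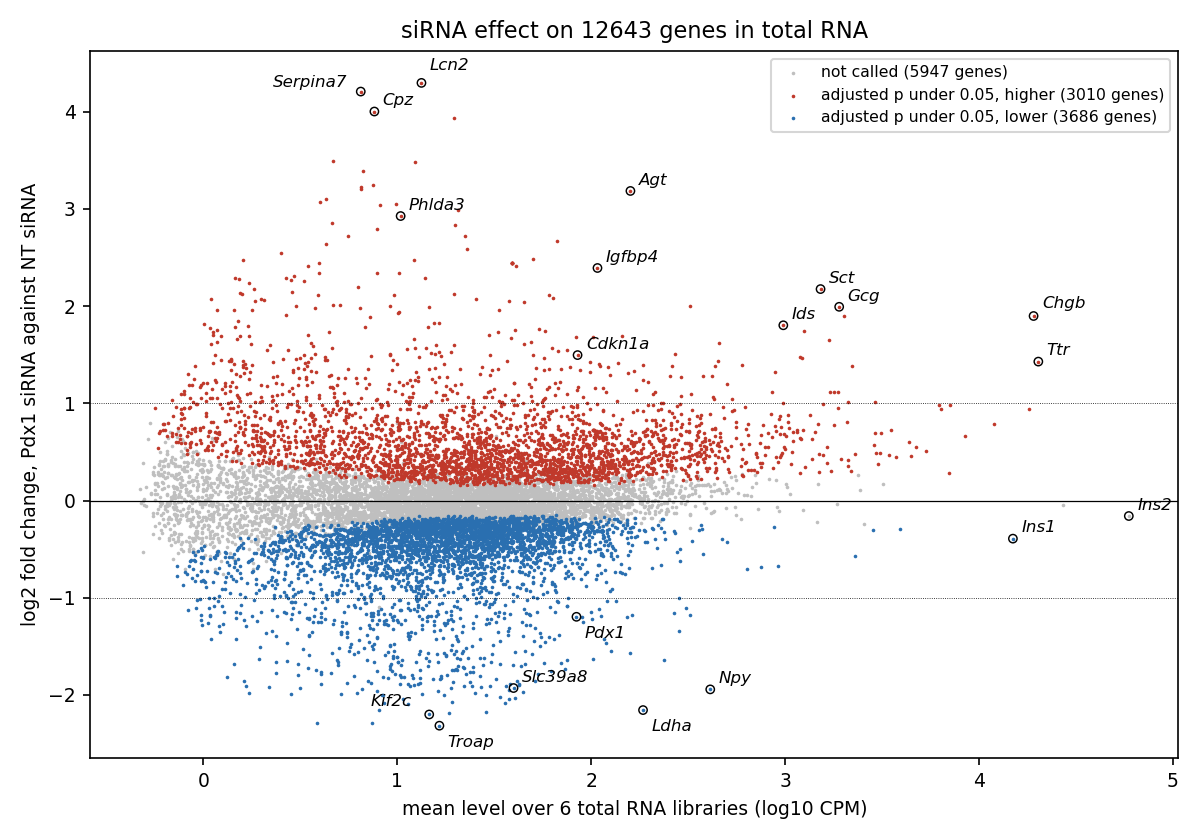
Each point is a gene, with its mean level over the 6 total RNA libraries (log10 CPM) against its log2 fold change, red where called higher (3010 genes), blue where called lower (3686 genes) and grey where not called. Dotted lines mark 2-fold, and the circled genes are named in the text; the points reach 4.30 upward (Lcn2) and −2.32 downward (Troap), and Chgb and Ttr stand far to the right among the higher genes.

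The largest gains in CPM were mainly in genes of the secretory granule. Chgb, which encodes the granule protein chromogranin B, held 7828, 8583 and 7827 CPM with NT siRNA and 24605, 30936 and 34836 CPM with Pdx1 siRNA (3.73-fold, adjusted p = 1.5e-08). The prohormone convertase gene Pcsk2, needed to process proinsulin and proglucagon, went from 4614, 5111 and 4566 to 7995, 9667 and 10621 CPM. Both were higher in every Pdx1 siRNA library than in any NT library. The transthyretin gene Ttr (log2 fold change 1.43), chromogranin A (Chga, 0.94), carboxypeptidase E (Cpe, 0.79), the granule membrane protein gene Ptprn (0.98), secretogranin II (Scg2, 0.67) and Gnas (0.94), which encodes the stimulatory G protein subunit, made up the rest of the 8 largest gains. Of the Gnas transcript 22% overlaps exons of another gene, so its counts are uncertain.

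On the side of losses, Ins1 stood at 17717, 16031 and 17142 CPM with NT siRNA and at 12931, 12368 and 13489 CPM with Pdx1 siRNA, a fall of 0.39 on the log2 scale (SE 0.11, edgeR adjusted p = 0.00901). Ins2, the more abundant insulin gene, was at 65652, 60424 and 61235 CPM with NT and 56144, 54755 and 56878 CPM with Pdx1 siRNA and did not pass the test (−0.16, SE 0.13, adjusted p = 0.339), though with total counts alone it was called lower (−0.43, edgeR adjusted p = 0.000121). Atp2a2, encoding the calcium pump SERCA2 of the endoplasmic reticulum, fell from 2622, 2898 and 2703 to 1623, 1832 and 2064 CPM. Other large losses were in Npy, encoding neuropeptide Y (−1.94), the G protein gene Gng12 (−0.68), Aldoa, encoding the glycolytic enzyme aldolase A (−0.7), the pyruvate kinase gene Pkm (−0.69, with 65.5% of its transcript matched by a copy elsewhere), the desaturase gene Scd2 (−0.3) and the ER oxidase gene Ero1b (−0.3). The call of Ins1 was lost without NT replicate 1 (−0.32, edgeR adjusted p = 0.0618), and those of Scd2 and Ero1b without any one of NT replicates 1 to 3 or Pdx1 siRNA replicates 1 and 2 (−0.21 to −0.29) and with only the 6 total RNA libraries in the fit. Over the 23 genes of the granin and granule cargo list, 16 rose and 3 fell (median 0.79, against −0.04 over all genes tested), with Resp18, a regulated granule protein gene (1.39), and the peptide amidation enzyme gene Pam (1.12) among those that rose and Npy lowest.

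Cell division genes fell in large numbers. Their promoters are shown first because many carry short elements through which the cell cycle is known to act: the CHR (TTTGAA or TTCGAA) and CCAAT boxes of G2 and mitosis genes, and E2F sites (TTTGGCGC or TTTCCCGC) of replication genes. The 250 bases before the RefSeq gene start (GRCm38.p6, the assembly behind mm10) were available for 10081 of the genes tested and were searched on both strands. Below, capitals mark CHR and CCAAT boxes in the first 3 sequences and the E2F site in Cdc6. In Chac1 they mark the element TGATGCAA, which the stress factor ATF4 is known to bind. All 5 genes are on the plus strand, and a box read on the minus strand appears as its reverse complement. These 5 promoters are examples chosen without a stated rule. All 5 hold a marked element, so they do not show how common the elements are.
Troap (chr15:99074723-99074972, plus strand): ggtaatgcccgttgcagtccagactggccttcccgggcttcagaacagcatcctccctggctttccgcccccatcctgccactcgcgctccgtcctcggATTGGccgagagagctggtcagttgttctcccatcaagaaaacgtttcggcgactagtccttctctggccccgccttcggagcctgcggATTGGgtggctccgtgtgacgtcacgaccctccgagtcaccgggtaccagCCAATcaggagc
Cdkn3 (chr14:46760291-46760540, plus strand): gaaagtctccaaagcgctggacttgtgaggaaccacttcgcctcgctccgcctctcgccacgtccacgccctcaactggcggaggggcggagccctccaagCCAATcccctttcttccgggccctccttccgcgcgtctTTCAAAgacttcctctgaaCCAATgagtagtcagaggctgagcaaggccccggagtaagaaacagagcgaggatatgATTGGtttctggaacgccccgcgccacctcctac
Cenpa (chr5:30666636-30666885, plus strand): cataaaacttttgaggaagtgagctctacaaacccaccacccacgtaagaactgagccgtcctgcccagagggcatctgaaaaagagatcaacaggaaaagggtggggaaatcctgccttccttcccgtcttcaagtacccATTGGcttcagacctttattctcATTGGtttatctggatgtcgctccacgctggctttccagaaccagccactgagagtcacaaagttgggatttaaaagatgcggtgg
Cdc6 (chr11:98907901-98908150, plus strand): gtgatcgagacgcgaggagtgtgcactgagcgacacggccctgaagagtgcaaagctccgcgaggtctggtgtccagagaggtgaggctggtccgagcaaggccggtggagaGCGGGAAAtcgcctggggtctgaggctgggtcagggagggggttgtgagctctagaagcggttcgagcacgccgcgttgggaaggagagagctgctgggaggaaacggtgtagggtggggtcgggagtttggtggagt
Chac1 (chr2:119350992-119351241, plus strand): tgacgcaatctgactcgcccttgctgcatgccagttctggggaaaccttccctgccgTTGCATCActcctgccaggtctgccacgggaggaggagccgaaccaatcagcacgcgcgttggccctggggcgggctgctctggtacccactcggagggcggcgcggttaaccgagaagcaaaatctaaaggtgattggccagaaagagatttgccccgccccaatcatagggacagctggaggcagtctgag

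Troap, encoding a spindle-associated protein, held 3 CCAAT boxes at 151, 62 and 12 bases before its start, and Cdkn3, a phosphatase of cyclin-dependent kinases, held 3 as well and a CHR at 111 bases. Cenpa, encoding the centromeric histone, held 2 CCAAT boxes and no CHR in this window. Of the genes called at least 2-fold lower, 27.9% had 2 or more CCAAT boxes, against 14.05% of all genes and 9.31% of genes called at least 2-fold higher. TTTGAA was found in 19.1%, 10.04% and 9.31% of these sets, and either E2F site in 7.96%, 2.65% and 0.60%. In the mitosis list 35.3% of 34 promoters held TTTGAA and 44.1% held 2 or more CCAAT boxes, while in the DNA replication list 19.4% of 31 promoters held an E2F site. CCAAT boxes were also common in some lists outside cell division: 2 or more were in 66.7% of 27 ER chaperone promoters, 47.4% of 19 cholesterol promoters and 42.9% of 14 serpin promoters. The other elements were not confined to division genes either. TTTGAA was in 4 of 11 promoters of small nucleolar RNA host genes and 25.8% of 31 promoters of SNARE, synaptotagmin and secretory Rab genes. An E2F site was in 2 of those 11 host gene promoters and in 9.62% of 52 spliceosome promoters. The homeodomain core TAATTA was in 1.59% of the promoters of these lower genes, 3.90% of those of the higher genes and 2.2% of all promoters, but in 3 of 14 promoters of mitochondrial tRNA synthetase genes and 2 of 12 of gut and neural peptide genes. The cyclic AMP element TGACGTCA was in 4.24%, 0.90% and 2.91%. These are matches of letters in a short window, not matched for base composition, and not sites shown to be used.

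**Figure D2:**
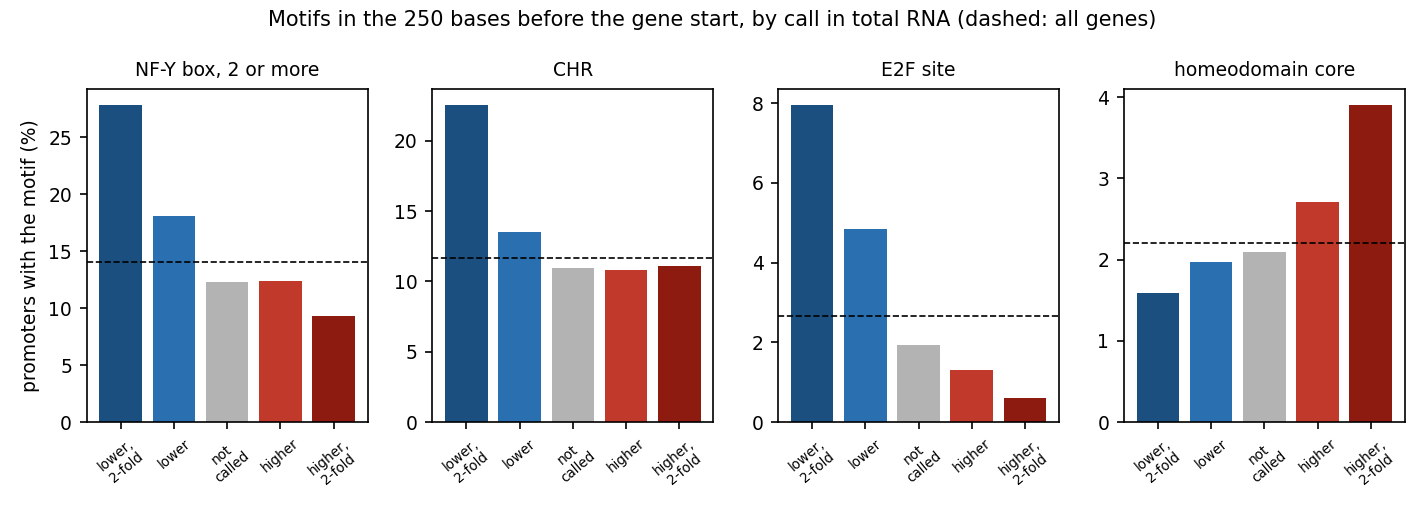
Bars give the percentage of promoters (250 bases before the gene start) that hold each element, for genes called lower or higher in total RNA, with and without a 2-fold limit, and for genes not called; the dashed line is all 10081 genes. The panels are 2 or more CCAAT boxes (NF-Y box), either CHR form, either E2F form and TAATTA (homeodomain core). The lower genes stand highest for CCAAT boxes (27.9%), CHR and E2F sites (7.96%), and the higher genes for TAATTA (3.90%).

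All 38 genes of the DNA replication list fell (median −1.30), and so did all 42 of the mitosis and spindle list (median −1.71), 30 and 40 of them by 2-fold or more. Over all genes tested, 29.2% were called lower. Where a list below is given with 0 genes in a direction, the same list had 0 there by DESeq2 and at an unadjusted p under 0.05 in edgeR, except for 1 plasma protein gene lower at an unadjusted p. Cdc6, which loads the replicative helicase, went from 21.5, 22.8 and 21.8 CPM to 7.49, 7.16 and 6.37 CPM, a 3.15-fold fall (SE 0.08 on the log2 scale, edgeR adjusted p = 5.7e-10). Mcm3, a helicase subunit, went from 87.3, 89.1 and 84.7 to 28.2, 30.01 and 24 CPM. In both genes every NT library lay far above every Pdx1 siRNA library. The helicase cofactor gene Cdc45 (−1.55) and Dbf4, which activates the kinase that fires origins (−1.8), fell by similar amounts.

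In mitosis, Kif2c, a kinesin that takes microtubules apart at the centromere, dropped from 23.4, 24.3 and 24.2 CPM to 5.83, 5.4 and 4.44 CPM. Troap was at 28.7, 26.9 and 26.8 CPM and then at 6.17, 5.56 and 4.83 CPM, the lowest fold change of all genes with at least 5 CPM (−2.32, SE 0.09, adjusted p = 3.6e-11). Cenpe, a kinesin that carries chromosomes, was at 48.5, 52.8 and 49.5 CPM with NT and 14.2, 15.1 and 12.8 CPM with Pdx1 siRNA. Replicates lay within a few CPM of each other in these genes and the groups were far apart. The kinetochore gene Nuf2 (−1.68), the cytokinesis genes Ect2 (−1.89), Cit (−2.15) and Cep55 (−2.08), Sapcd2 (−2.19), Pimreg (−2.09), Cdkn3 (−2.29) and Cenpa (−2.18) fell alongside, as did cyclin B1 (Ccnb1, −2.09), although a copy matches 51.9% of its transcript.

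The other proliferation lists followed. Of 30 genes for homologous recombination and Fanconi repair 29 fell and 0 rose (median −1.11), for example Rad51ap1 (−1.9) and Fancb (−1.62). Of 30 genes for chromatin replication 29 fell and 0 rose (median −1.07), among them the histone chaperone subunit gene Chaf1b (−1.57), Hmgb2 (−1.82) and Hat1, encoding the acetyltransferase of new histones (−1.18). Nucleotide synthesis gave 18 of 25 lower and 1 higher (median −0.48), and the members that fell furthest were the thymidine supply genes Tk1 (−1.75) and Tyms (−1.35) and both ribonucleotide reductase genes, Rrm2 (−1.34) and Rrm1 (−1.15). Tubulin and stathmin genes led the cytoskeleton list, in which 24 of 48 fell and 5 rose (median −0.26). Tubb5 went from 446, 468 and 429 to 199, 218 and 175 CPM, and Stmn1, encoding the tubulin-binding stathmin, fell by 1.91. In bulk RNA, fewer dividing cells and less of these mRNAs per cell cannot be told apart.

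Control of entry into the cycle moved both ways. In the list of G1 cyclins, their kinases and E2F factors, 20 of 27 genes fell and 3 rose (median −0.50). E2f8, a repressor made in S phase, was at 30.2, 29.6 and 30.9 CPM with NT and 9.08, 8.08 and 7.75 CPM with Pdx1 siRNA. Cyclin E1 (Ccne1, −0.92) and its kinase gene Cdk2 (−1.28) fell too. Cdkn1a, encoding the kinase inhibitor p21, rose from 44, 43.1 and 46.4 CPM to 129.7, 129 and 118 CPM (2.82-fold, SE 0.08 on the log2 scale, adjusted p = 1.2e-09). All 3 Pdx1 siRNA libraries lay above all 3 NT libraries, with little spread within either group.

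Most p53 targets rose too. Of 31 measured genes of the p53 list 20 rose and 6 fell (median 0.51), 9 of the 20 by 2-fold or more, against 23.8% higher over all genes. Phlda3, which restrains AKT signalling, went from 2.21, 2.36 and 2.65 CPM to 18.4, 19.2 and 17.6 CPM. Eda2r, a death-domain receptor of the TNF family, went from 0.889, 1.03 and 0.766 to 6.17, 7.2 and 9.74 CPM. The nuclease gene Aen (1.19) and the autophagy and stress gene Trp53inp1 (1.61) were also higher in every Pdx1 siRNA library than in any NT library. In the BCL2 family 3 of 13 genes rose and 5 fell (61.5% called, against 53% over all genes; median −0.01); the BH3-only killer Bbc3 (PUMA) rose by 0.51, and Bok, a pore-forming relative of BAX, fell by 1.11.

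**Figure D3:**
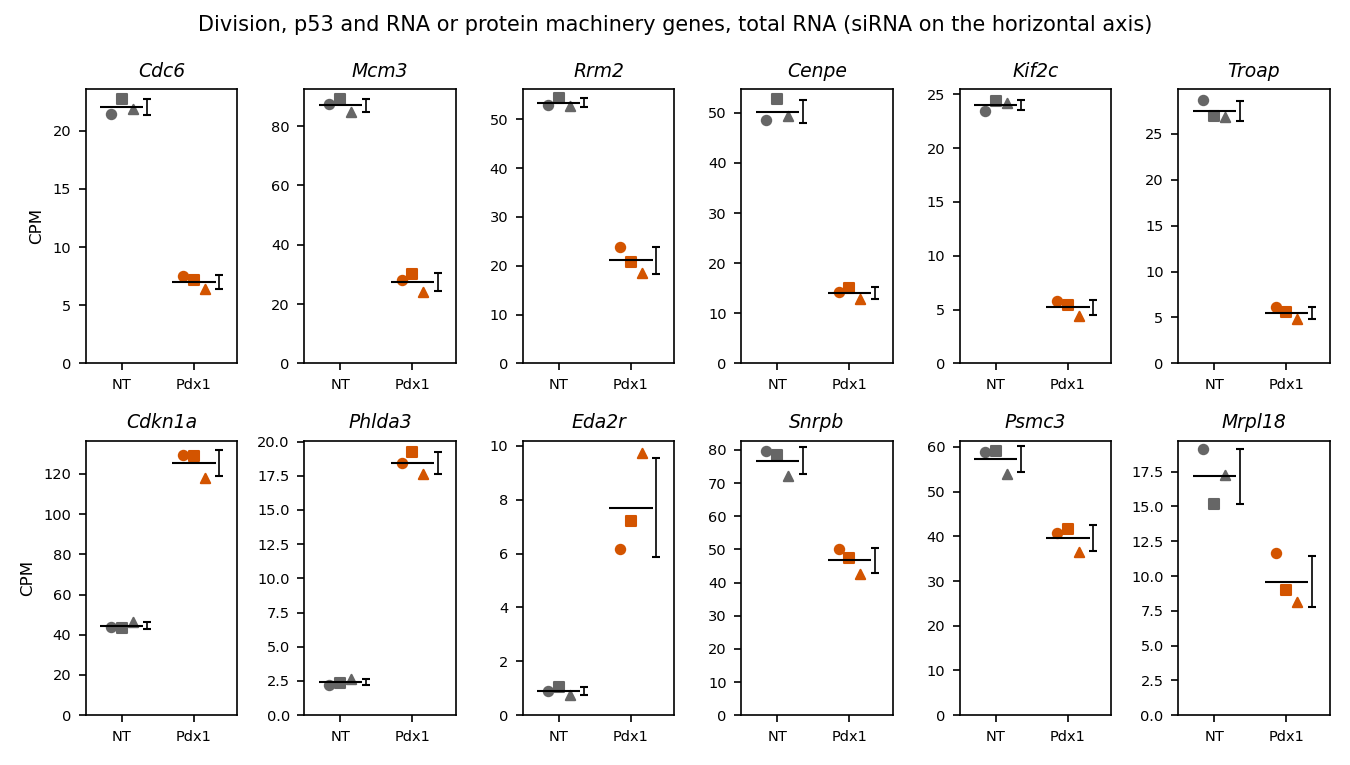
Levels in CPM (vertical axes from 0) of 12 genes in each total RNA library, grey for NT and orange for Pdx1 siRNA, with circles, squares and triangles for replicates 1 to 3; the horizontal bar is the mean and the bracket 1 SD (n = 3). The groups do not overlap in any panel, as in 58.8% of all genes. Cdkn1a, Phlda3 and Eda2r are higher with Pdx1 siRNA and the other 9 genes lower.

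Many genes for splicing, protein folding and protein breakdown also fell, to be read against 29.2% lower over all genes. In the spliceosome list 46 of 59 genes fell and 1 rose (median −0.47). The core splicing protein gene Snrpb went from 79.8, 78.4 and 72.2 to 50.04, 47.3 and 42.7 CPM, the U2 protein gene Snrpa1 fell by 1.03 and the splicing factor gene Srsf1 by 0.71. Of 46 genes in the proteasome list 26 fell and 0 rose (median −0.27), Psmc3, a subunit of the regulatory ATPase ring, from 58.8, 59.1 and 53.9 to 40.8, 41.7 and 36.4 CPM. The list includes Psmc3ip, its lowest member (−1.56), which is not a proteasome subunit. Heat shock chaperones gave 19 of 35 lower and 3 higher (median −0.20), with the HSP40 gene Dnajb1 at −0.57 and the cochaperone gene Stip1 at −0.49. Cytosolic tRNA synthetases gave 12 of 20 lower and 1 higher (median −0.22), with the valine enzyme gene Vars at −0.68. In ribosome assembly in the nucleolus 14 of 36 fell and 1 rose (median −0.18), including nucleolin (Ncl, −0.44) and Nop58 (−0.42); without NT replicate 1 or 2 the number lower was 7, without NT replicate 3 it was 8 and without Pdx1 siRNA replicate 3 it was 9. Of 68 genes in the list of translation initiation and elongation factors 22 fell and 11 rose (median −0.09, 48.5% called against 53% over all genes), and the number lower was 13 without NT replicate 1, 14 without NT replicate 3 and 45 with total counts alone. Its lowest and highest members, Eif4ebp1 (−1.26) and Eef2kmt (0.57), are not initiation or elongation factors themselves. With total counts alone the numbers lower were 42 for the proteasome, 31 for heat shock chaperones and 32 for ribosome assembly.

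Of 77 mitochondrial ribosomal protein genes 46 fell and 1 rose (median −0.27), Mrpl18 for example from 19.1, 15.2 and 17.2 to 11.7, 9.0 and 8.14 CPM. The number lower was 21 without NT replicate 1, 28 without NT replicate 3, 29 without Pdx1 siRNA replicate 3 and 72 with total counts alone. Of 77 cytosolic ribosomal protein genes 0 fell and 3 rose (median 0.12, 3.90% called against 53% over all genes). Of the 77 genes 52 have a near-identical copy elsewhere, so their counts are uncertain. Some IP libraries, which share the estimate of the spread, were known beforehand to stand apart at genes with such copies. The part of this in the few calls was not tested. These short mRNAs also varied between replicates of a group: the list median relative to the NT mean was 0.13, −0.14 and 0.02 in the NT libraries and 0.32, −0.02 and 0.03 in the Pdx1 siRNA libraries, in which replicate 1 was highest. Complex I genes varied as well (0.11, −0.12 and −0.00 with NT, and 0.05, −0.17 and −0.20 with Pdx1 siRNA), with 12 of 46 lower and 2 higher, or 6 lower without NT replicate 1, 19 without Pdx1 siRNA replicate 1 and 30 with total counts alone. Of these 46 genes 30.4% were called, against 53% over all genes. The part of the library differences in these small changes was not tested.

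**Figure D4:**
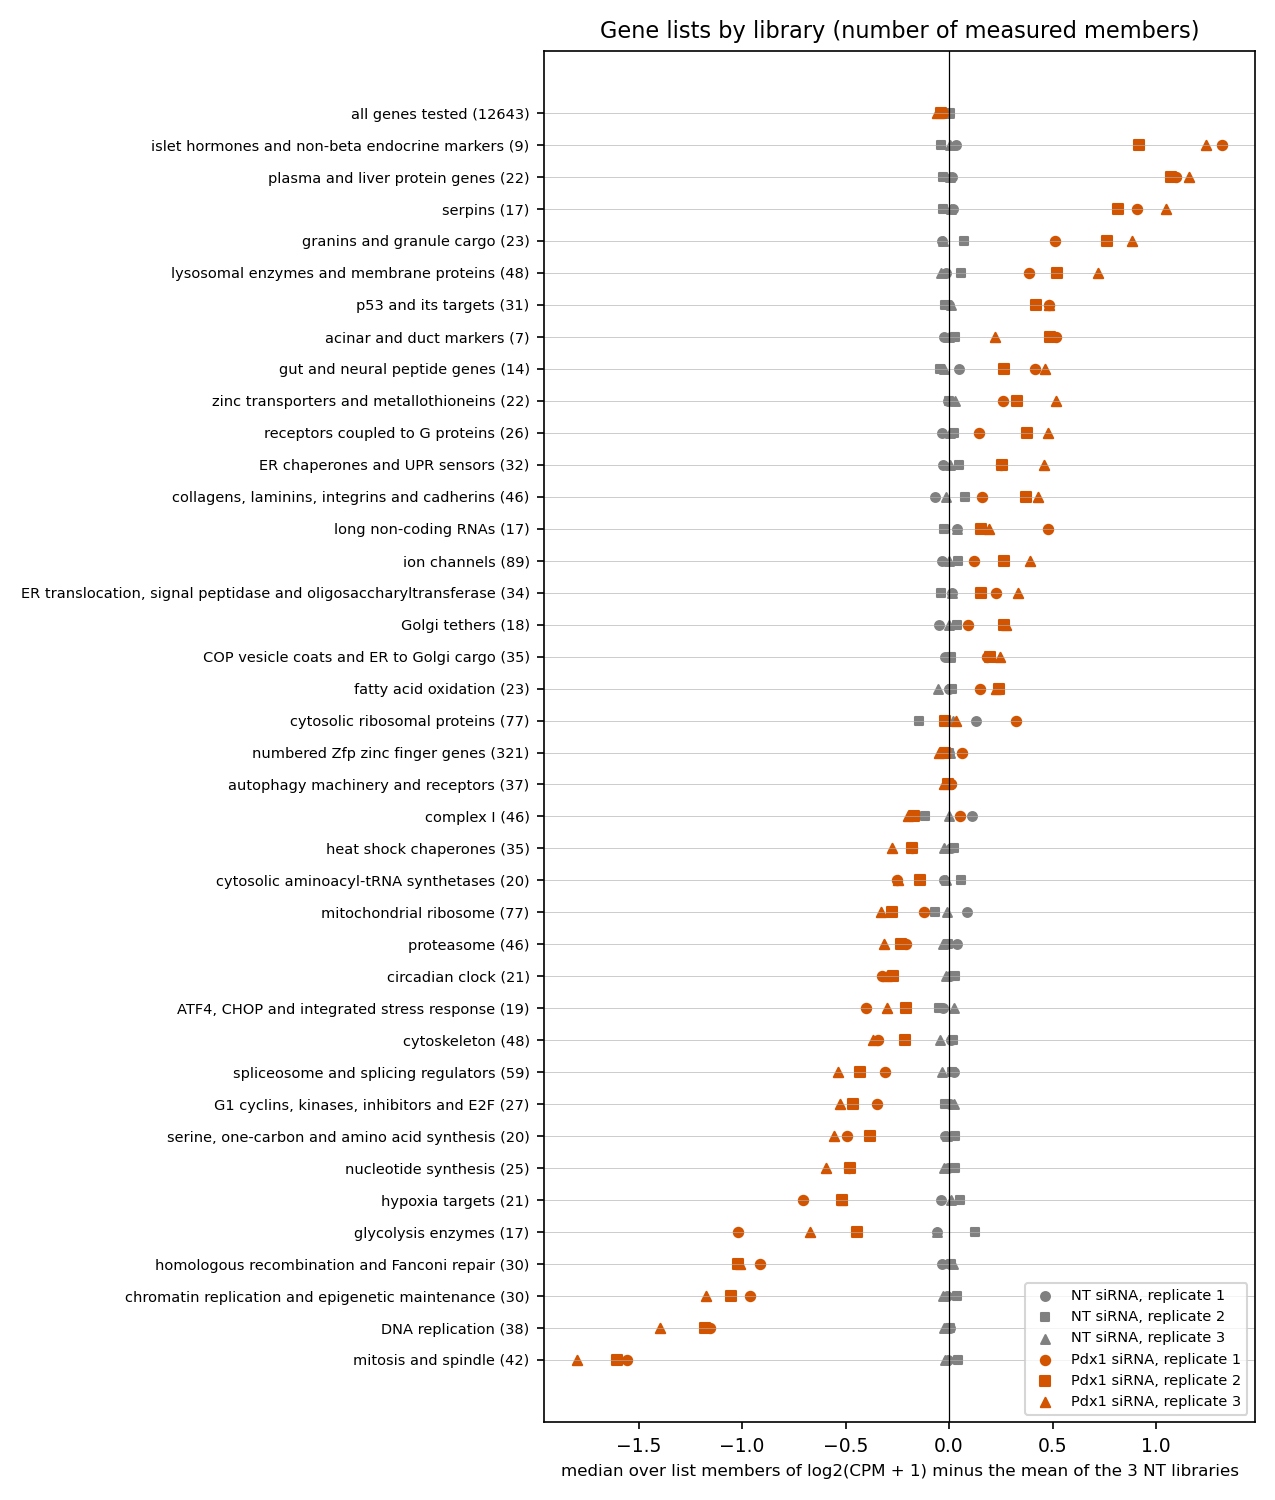
Each row is a gene list with its number of measured genes, and each point the median over its members, in 1 library, of log2(CPM + 1) minus the mean of the 3 NT libraries. Grey NT points gather near 0; the orange Pdx1 siRNA points lie lowest for mitosis and DNA replication and highest for islet hormones, plasma proteins and serpins, and they mix with the grey ones for cytosolic ribosomal proteins and complex I.

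At the other end, genes for secreted proteins that hepatocytes usually make were among the largest rises. Of 43 listed plasma and liver protein genes 22 were measured, of which 19 rose and 0 fell (median 1.42). Of these, 17 rose by 2-fold or more, against 3.38% of all genes. Transcripts with fewer than 141 counts over the 12 libraries were not in the tables. No transcript had fewer than 7 counts in any total RNA library, so genes near 0 with either siRNA are missing from the list. How this shifts the numbers of rises and falls was not tested. The 22 measured genes went from 1.39% ± 0.14 to 3.10% ± 0.12 of all counts (SD, n = 3), most of it Ttr. Agt, encoding angiotensinogen, was at 30.4, 32.1 and 32.1 CPM with NT and at 229, 286 and 346 CPM with Pdx1 siRNA, a 9.1-fold rise (SE 0.16 on the log2 scale, adjusted p = 4.4e-10). Hpx, encoding the haem carrier hemopexin, rose from 0.813, 0.738 and 0.727 to 7.79, 7.94 and 9.96 CPM, and Lcn2, encoding the siderophore-binding lipocalin 2, from 1.07, 1.2 and 1.55 to 21.4, 20.9 and 33.8 CPM. Each was several times higher in every Pdx1 siRNA library than in any NT library, and the Pdx1 siRNA replicates spread more, with replicate 3 the highest. The vitamin D carrier gene Gc rose 3.99-fold.

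Serpins, a family of protease inhibitors that overlaps the plasma protein list, gave 13 of 17 higher and 2 lower (median 1.05). Serpina10, which inhibits clotting factor Xa, went from 4.72, 4.81 and 5.15 CPM to 31.1, 34.5 and 39.4 CPM, and Serpine2, which inhibits thrombin, from 2.06, 2.13 and 2.99 to 33.1, 35 and 42.6 CPM. The groups were far apart for both genes. Serpina7, which carries thyroxine, rose by 4.21 on the log2 scale and the C1 inhibitor gene Serping1 by 1.68. Among further genes with the highest fold changes were the carboxypeptidase gene Cpz (4.0), the matrix proteoglycan gene Podn (3.48), the lectin gene Clec2d (3.39), Olfm3 (3.25) and the lipase gene Pnliprp2 (3.23).

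Peptide genes of other endocrine cells rose as well. Of 17 listed islet hormones and non-beta endocrine markers 9 were measured, and all 9 rose (median 1.43). They include Gcg (1.99), encoding glucagon, from 749.9, 785 and 754 to 2944, 2879 and 3287 CPM. Ppy, encoding pancreatic polypeptide, rose by 2.13 but only to 2.91, 1.96 and 2.7 CPM. Of 25 listed gut and neural peptide genes 14 were measured, of which 10 rose and 0 fell (median 0.49, with 6 higher with total counts alone). Genes near 0 with either siRNA are missing from both lists as well, and the effect on the numbers of rises and falls was not tested. Sct, encoding the gut hormone secretin, stood at 542, 567 and 547 CPM with NT and at 2339, 2517 and 2625 CPM with Pdx1 siRNA. Cartpt went from 6.63, 5.12 and 5.82 to 23.8, 20.8 and 25.3 CPM, while the trefoil factor gene Tff3 rose by 2.29 and galanin (Gal) by 1.16. Of the 7 measured acinar and duct markers 5 rose and 0 fell, their summed share being 0.0228% of counts with NT and 0.0357% with Pdx1 siRNA; Spp1, encoding osteopontin, was at 74.7 ± 1.49 and 199 ± 31.1 CPM, and the elastase gene Cela2a was at 0.676 ± 0.0563 and 0.684 ± 0.101 CPM. The part of such cells in the other changes was not tested.

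The path that secreted proteins take through the cell was moderately higher. Of 32 ER chaperone and unfolded protein response genes 20 rose and 2 fell (median 0.33), for instance Os9, a lectin of ER-associated degradation (0.87), Edem2, of the same pathway (0.74), Dnajb9 (0.8) and the transcription factor gene Xbp1 (0.58). Of 34 genes for translocation, signal cleavage and N-glycan transfer 15 rose and 1 fell (median 0.22, 47.1% called against 53% over all genes), with Ssr4 (0.67) and Dad1 (0.61). Of 35 COP coat and cargo receptor genes 18 rose and 1 fell (median 0.23, 54.3% called): the p24 cargo receptor gene Tmed3 went from 1081, 1014 and 1029.7 to 2049.9, 1948 and 2237 CPM, and the glycoprotein receptor gene Lman1 from 679, 761 and 719.6 to 1014, 1163 and 1303 CPM. Golgi tethers gave 11 of 18 higher and 2 lower (median 0.22), with giantin (Golgb1) at 0.62; 7 rose without Pdx1 siRNA replicate 2 and 6 without replicate 3. With total counts alone the medians of the translocation, COP and Golgi lists turned to −0.06, −0.04 and −0.06, so their direction rests on the scaling, and 13 ER chaperone genes rose.

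Most lysosomal genes rose. Of 48 lysosomal enzyme and membrane protein genes 39 rose and 1 fell (median 0.56), and their share of counts went from 2.43% ± 0.08 to 3.19% ± 0.22. Ids, encoding iduronate sulfatase, was at 429.9, 415 and 463 CPM with NT and at 1493, 1430.3 and 1641 CPM with Pdx1 siRNA. Ctsd, encoding the protease cathepsin D, was at 1255, 1354 and 1241 CPM with NT and 2141, 2513 and 2798 CPM with Pdx1 siRNA, and its counts are uncertain because 34.4% of its transcript overlaps exons of another gene. Cathepsin H (Ctsh) rose by 1.57 and cathepsin O (Ctso) by 0.84. The groups did not overlap for any of these 4 genes, as for 58.8% of all genes. The proton pump list gave 7 of 21 higher and 2 lower (median 0.09, and −0.18 with total counts alone), with its accessory subunit gene Atp6ap1 at 0.73. Autophagy genes gave 7 of 37 higher and 7 lower (median −0.03, with either sign across settings). The shares called were 42.9% and 37.8%, against 53% over all genes.

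**Figure D5:**
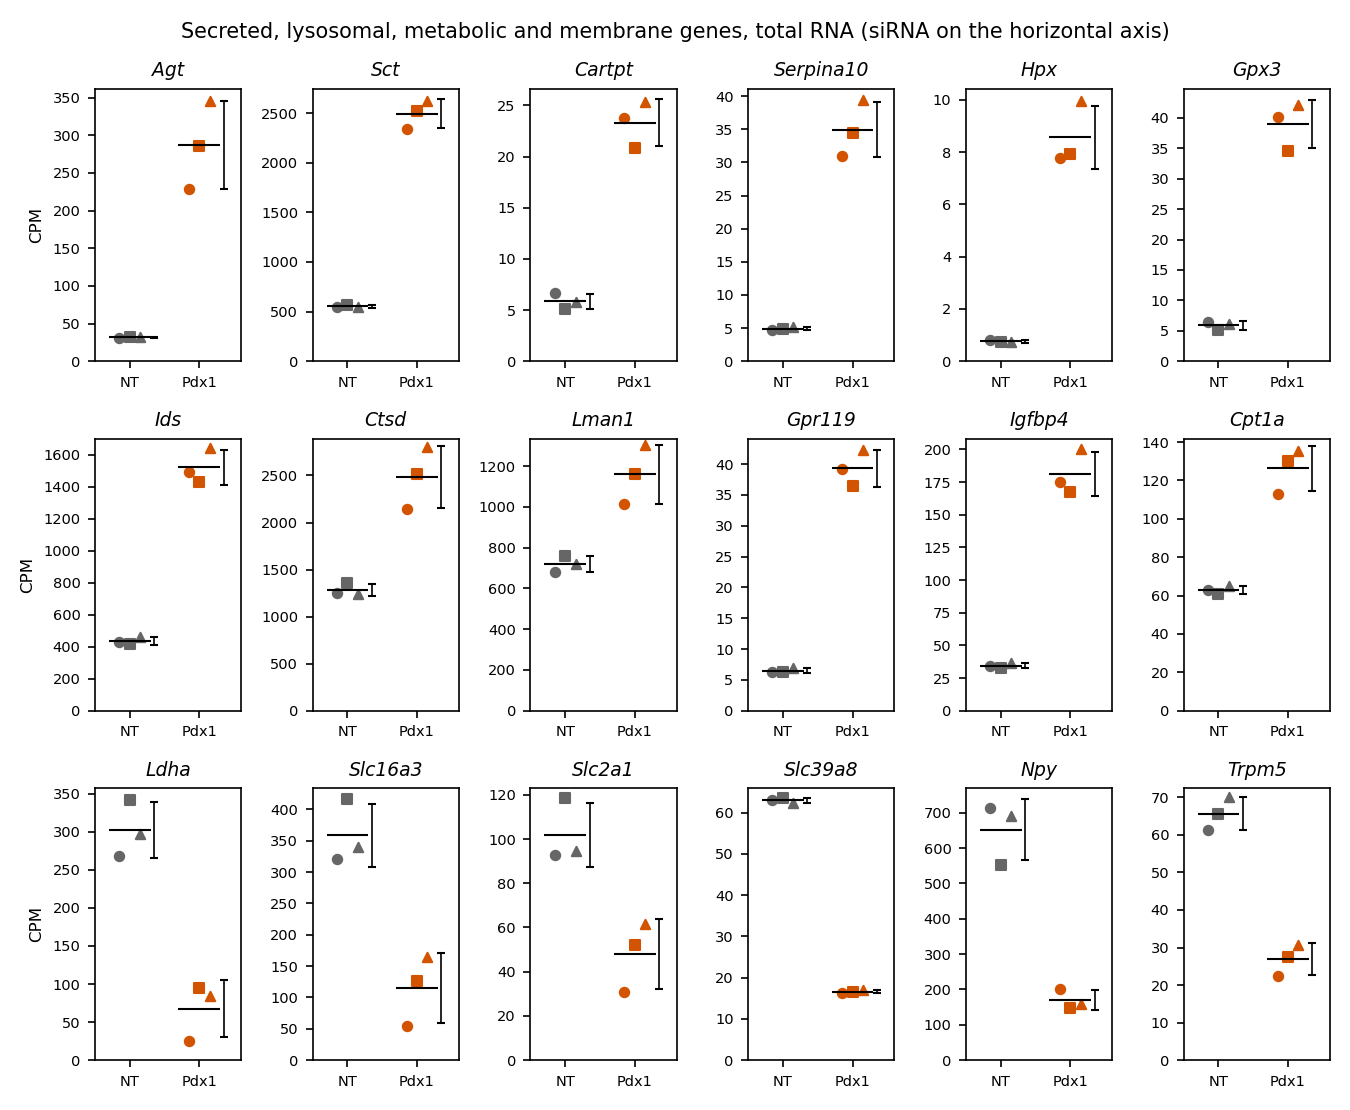
Levels in CPM (vertical axes from 0) of 18 genes in each total RNA library, with colours, symbols, means and SD brackets (n = 3) as in the plot of division genes. The 12 genes in the upper rows are higher with Pdx1 siRNA, Agt for example by 3.19 on the log2 scale, and the genes of the lowest row are lower; replicate 1 with Pdx1 siRNA is the lowest point for Ldha, Slc16a3 and Slc2a1.

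Most glycolysis genes fell, while about as many fatty acid oxidation genes rose as did not. Of 17 glycolytic enzyme genes 11 fell and 3 rose (median −0.70), and of 21 hypoxia targets 15 fell and 0 rose (median −0.53). Ldha, which encodes lactate dehydrogenase A and is normally silenced in beta cells, was at 268, 342 and 298 CPM with NT and 24.7, 94.5 and 84 CPM with Pdx1 siRNA (−2.16, SE 0.41, adjusted p = 0.000425). Slc16a3, encoding the lactate exporter MCT4, went from 321, 416 and 339.8 CPM to 54.9, 126 and 164 CPM, and Slc2a1, encoding the glucose transporter GLUT1, from 92.9, 119 and 94.5 to 30.8, 52 and 61.5 CPM. In all 3 genes, as in 58.8% of all genes, the groups did not overlap. NT replicate 2 was the highest library in all 3 and Pdx1 siRNA replicate 1 the lowest. The glycolysis list as a whole had medians of −1.02, −0.45 and −0.67 in Pdx1 siRNA replicates 1 to 3. Tpi1 (−1.16) and Pfkp (−1.04), both glycolytic, fell with less spread, and the mitophagy receptor gene Bnip3 fell by 1.76, with 94.2% of its transcript matched elsewhere.

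In fatty acid oxidation 12 of 23 genes rose and 2 fell (median 0.26, or −0.02 with 5 higher with total counts alone). Cpt1a, the gate for long-chain fatty acids into mitochondria, was at 62.8, 60.8 and 65.1 CPM with NT and 113, 130.1 and 136 CPM with Pdx1 siRNA, and Cpt1c, its neural relative, went from 70.7, 74.1 and 70.4 to 122, 147 and 160.2 CPM. For both, every Pdx1 siRNA library lay above every NT library. In lipid synthesis 7 of 27 fatty acid and glycerolipid genes rose and 7 fell (51.9% called, against 53% over all genes; median −0.01). Of 27 cholesterol genes 4 rose and 6 fell (37% called; median 0.01), among them the sterol carrier gene Stard4 (−1.08) and mevalonate kinase (Mvk, −0.6). Serine, one-carbon and amino acid synthesis gave 12 of 20 lower and 2 higher (median −0.55), with Psat1 from 140.1, 137 and 136 to 60.2, 65.3 and 60.8 CPM and Mthfd2, of mitochondrial folate metabolism, at −0.86. In the ATF4 and CHOP list 10 of 19 fell and 2 rose (median −0.33), Atf5 (−1.03), Trib3 (−1.23) and the glutathione-degrading enzyme gene Chac1 (−0.8) among them. TGATGCAA, marked in the Chac1 promoter, was in 22.2% of 18 promoters of that list and in 0.50% of all promoters.

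In 3 lists of membrane genes more rose than fell, while over all genes tested 23.8% were called higher and 29.2% lower. Of 89 ion channel genes 43 rose and 11 fell (median 0.31, 60.7% called against 53% over all genes). With total counts alone 26 rose and 23 fell. The potassium channel gene Kcnc2 (1.2) and the sodium channel gene Scn3a (1.25) rose, and Trpm5, a cation channel that helps glucose-induced depolarisation, fell from 61.2, 65.5 and 70.1 to 22.5, 27.6 and 30.7 CPM. Of 26 receptors coupled to G proteins 15 rose and 6 fell (median 0.42, 80.8% called). Gpr119, a lipid receptor that promotes insulin release, went from 6.32, 6.3 and 6.92 CPM to 39.2, 36.4 and 42.3 CPM, and the somatostatin receptor gene Sstr1 from 1.22, 1.33 and 1.28 to 9.6, 12.7 and 13 CPM. Their libraries were tightly grouped by siRNA. The zinc importer gene Slc39a8 went the other way, from 63, 63.6 and 62.4 to 16.2, 16.5 and 16.9 CPM. In its list of zinc transporters and metallothioneins 14 of 22 rose and 3 fell (median 0.35, 77.3% called).

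Most genes in the list of matrix and adhesion genes rose, against 23.8% higher over all genes. Of 46 collagen, laminin, integrin and cadherin genes 27 rose and 7 fell (median 0.43; 17 rose with total counts alone), with Col18a1 at 2.79, Cdh7 at 1.24 and Col6a3 at −1.19. Igfbp4, which binds insulin-like growth factors, was at 34.1, 32.5 and 36.7 CPM with NT and 175, 168 and 199.98 CPM with Pdx1 siRNA, and Igfbp7 rose by 1.5. Of 26 insulin and IGF signalling genes 8 rose and 8 fell (median 0.03, or −0.24 with 4 higher and 14 lower with total counts alone). In the list of genes kept low in beta cells 4 of 16 rose and 7 fell (median −0.22), Ldha and Acot7 (−1.06) downward. The adhesion receptor gene Cd44 rose by 1.75, the secreted signal gene Wnt4 by 1.31 and Wnt5a by 1.27. Of 45 Wnt, Notch and TGF-beta genes 12 rose and 12 fell (median −0.04, with either sign across settings), or 5 and 23 with total counts alone. The share called was 53.3%, against 53% over all genes. Of 8 progenitor genes 3 rose and 1 fell (50% called). The antioxidant enzyme gene Gpx3, secreted into plasma, went from 6.47, 5.06 and 6.17 to 40.2, 34.6 and 42.1 CPM, in a list of antioxidant genes where 3 of 33 rose and 7 fell (median −0.10, 30.3% called).

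Islet transcription factor genes moved in both directions. In the list of 23, which includes Pdx1, 6 rose and 7 fell (56.5% called, against 53% over all genes; median −0.11). Mafa, an activator of the insulin gene in mature beta cells, was at 64.8, 92.7 and 76.6 CPM with NT and 37.8, 47.8 and 36 CPM with Pdx1 siRNA, and Bach2 fell by 1.05. Hnf4a, a regulator shared with liver, rose from 12.5, 11.3 and 11.4 to 17.7, 17.9 and 16.8 CPM. The groups did not overlap for Mafa or Hnf4a, as for 58.8% of all genes. Of 21 circadian clock genes 13 fell and 1 rose (median −0.36), for example Clock itself (−0.68) and Bhlhe40 (−0.94). Of 29 immediate early genes 9 rose and 11 fell (median −0.17), with Egr1 at −1.32 and Dusp6, a phosphatase of ERK, at 1.38. Of 321 numbered Zfp zinc finger genes 41 rose and 51 fell (28.7% called, against 53% over all genes; median −0.01), and 33 fell without NT replicate 2; with total counts alone 8 rose and 152 fell.

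Interferon and inflammatory genes were called in both directions, and about as often as the 53% over all genes. Of 34 interferon and MHC class I genes 15 rose and 4 fell (median 0.24, 55.9% called), with the peptide transporter gene Tap1 at 1.12 and the interferon-induced gene Ifit2 at −1.11. Of 24 NF-kappaB and inflammatory genes 10 rose and 3 fell (median 0.17, 54.2% called), including Il6ra (1.49), the apoptosis inhibitor gene Birc3 (1.17) and Lcn2. With total counts alone both medians turned negative (−0.04 and −0.10). Of the long non-coding RNAs 7 of 17 rose and 2 fell (median 0.29, 52.9% called), Malat1, a nuclear RNA, from 363, 289.7 and 291 to 591, 464 and 519 CPM.

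IP RNA from the same conditions was read beside total RNA, in the same fit with a shared estimate of the spread. Of the 6696 genes called in total RNA, 5465 were called in IP RNA with the same sign and 14 with the opposite sign. The share of all genes called in IP RNA is not given here, so these counts are a description. The labels do not say whether IP and total RNA came from separate cultures. The difference between the effects was called for 29 genes (0.229% of 12643 tested), a number that ranged from 4 to 383 when total RNA libraries were left out. Among the division genes E2f8 was at −1.87 in total RNA and −2.44 in IP RNA. Blm (−1.28 and −2.45), a DNA helicase, and the proliferation marker gene Mki67 (−1.56 and −2.31), both chosen after their values were seen, also fell further in IP RNA. The list medians in IP RNA were −1.66 for DNA replication, −2.18 for mitosis, 1.39 for plasma proteins and 0.56 for lysosomal genes.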

How the data were processed

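The authors deposited raw counts of reads per RefSeq transcript, 1 table per library, without normalization. The submitters' processing notes name TopHat2, featureCounts and mm10 but no versions or roles, and they do not say how strand and reads with several matches were handled. Transcripts with a lower total than 141 counts over the 12 libraries were not in the tables. The lowest count of any transcript in a total RNA library was 7. Of 17133 transcripts 16838 had a symbol in the RefSeq table of GRCm38.p6, and the rest, with 0.782% to 0.834% of counts, were left out. The transcript with the highest total stood for each of 12643 genes. Reads carry no molecular identifiers, so counting error is only part of the error.

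All 12 libraries, grouped by their labels, entered 1 edgeR 4.0.16 quasi-likelihood fit (R 4.3.3) with a mean per group, TMM scaling, the default filter (0 genes removed) and 8 residual degrees of freedom. Benjamini-Hochberg adjustment ran over all genes, with calls at an adjusted p under 0.05. Standard errors come from the fold change and the F statistic. Replicate pairs differed by more than sampling noise, at a chi-square of 5.75 to 40.4 per degree of freedom. The edgeR test of the total RNA effect was run on simulated counts with known changes. The alternatives, DESeq2 1.42.0 among them, and the test of the difference between IP and total RNA were not. Copies were sought with minimap2 2.31 against GENCODE M21 transcripts (at least 100 bases and 95% identity, 50% of the transcript). Figures used Python 3.11.15.

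Named genes were Pdx1, Ins1, Ins2, Mafa, Gcg and Cdkn1a, the 10 highest and 10 lowest fold changes past the test with at least 5 CPM and no overlap, the 8 largest gains and 8 largest losses in CPM, and from each list up to 3 called genes with the smallest p and 1 with the largest change. Iapp, Nkx6-1 and Cela2a are named as markers. Not all of them are printed. The comparison, the lists and the rule were chosen with earlier results of these data known, so no list serves as independent support.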

Additional observations from a re-analysis of the deposited data

Results flagged for a closer look

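The siRNA effect on E2f8 differed between the fractions. The IP effect minus the total RNA effect was −0.57 on the log2 scale (edgeR interaction test, adjusted p = 0.0399), with a fall in both.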

How the results depend on the processing

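The number of genes called in total RNA stayed within 1.5 times the 6696 reported, from 5578 to 7003 with a library left out and up to 8436 with total counts alone; DESeq2 called 6516 and the 6 total RNA libraries alone 6333. The replicate block gave 7231 genes, but whether the replicate numbers pair the libraries is not settled. Correlations of deviations between same numbers were 0.49, 0.55 and −0.06 for replicates 1, 2 and 3, and replicate 3 correlated better with another number. Deviations from a mean of 3 libraries depend on one another, so these values cannot decide it. The number of genes whose effect differed between IP and total RNA, 29, was unstable: 52 with upper-quartile factors, 11 with total counts alone, 54 without the insulin genes, 373 with the replicate block, 327 by DESeq2 and 4 to 383 with a library left out, the highest without Pdx1 siRNA total replicate 1. With total counts alone list medians larger than their spread between replicates changed sign for fatty acid oxidation (−0.0164), ER translocation (−0.0598), COP coats (−0.0418), Golgi tethers (−0.063), SNAREs and secretory Rabs (−0.20), interferon genes (−0.0406), NF-kappaB genes (−0.10), the V-ATPase (−0.18) and membrane calcium handling (−0.10), and some smaller ones as well, including amino acid transporters and mitochondrial carriers. The autophagy median was 0.0147 with upper-quartile factors and −0.0425 to 0.0351 with a library left out. The causes were not tested. Of 154 genes by name, 150 kept direction and call in every setting, the others being Ins1, Ins2, Scd2 and Ero1b, and 0 reversed.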

Other observations

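Exocytosis, calcium and carrier genes moved in both directions. Of 42 SNARE, synaptotagmin and secretory Rab genes 13 rose and 8 fell (median 0.07), with the calcium sensor genes Syt1 (0.93) and Syt4 (0.92) higher and Cplx1, encoding the fusion clamp complexin 1, lower (−1.21). Cplx1 held 3.99, 3.75 and 4.18 CPM with NT and 1.6, 1.99 and 1.52 CPM with Pdx1 siRNA, with no overlap between the groups, as in 58.8% of all genes. Of 32 genes for calcium handling at the ER and plasma membrane 14 rose and 8 fell (median 0.18). The calcium release channel gene Itpr1 rose from 16.3, 21 and 18.6 to 32.3, 41.3 and 43.4 CPM and the calcium entry channel gene Orai2 by 0.88, while S100a10 fell by 0.98.

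Among 24 amino acid transporter genes 10 rose and 6 fell (median 0.09), with Slc38a10 (0.75) and the lysosomal transporter gene Slc36a1 (0.74) higher. Of 35 mitochondrial carrier genes 9 rose and 5 fell (median 0.01); Slc25a53 went from 29.4, 31.5 and 30.6 to 69.6, 69.4 and 78 CPM, and Slc25a10, encoding the dicarboxylate carrier, fell by 0.7. With total counts alone all 4 list medians were negative (−0.20, −0.10, −0.19 and −0.27 in the order given), and the numbers higher were 5, 7, 8 and 1. The number of SNARE list genes lower was 3 without NT replicate 1 or 3, 5 without Pdx1 siRNA replicate 3 and 11 without Pdx1 siRNA replicate 1. The number of calcium handling genes lower was 4 without NT replicate 1, and that of carrier genes was 3 without NT replicate 3 and 9 without Pdx1 siRNA replicate 1, which gave a carrier median of −0.02. Over all genes tested, edgeR called 23.8% higher and 29.2% lower.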
